A study of Homo sapiens with 2 samples.

Results

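The sites described here are the SRSF1 crosslink sites of chromosome 8 in H1299 cells, outside 2 places on the long arm that hold very dense groups of sites. Members are those rows of the authors' deposited list (hg19) that lie on chromosome 8, less 46 minus-strand rows in a window named after PLEC (144990388 to 145014993 by their outer ends), and less 10 rows at 70602353 to 70602608. This left 318 of the 374 chromosome 8 sites, in a list of 6754. The other 21 autosomes, with 6141 sites, were the background. The chromosome was chosen because it held many sites for its number of genes, so its total number of sites is a description and supports nothing.

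SRSF1 is an SR protein, a family of RNA-binding proteins with a region rich in arginine and serine. It binds purine-rich stretches of pre-messenger RNA, helps to define exons during splicing, and also takes part in messenger RNA export and translation. HITS-CLIP finds where such a protein touches RNA: ultraviolet light crosslinks protein to RNA in living cells, the complex is immunoprecipitated, and the RNA fragments, called tags, are sequenced. A peptide left on the RNA can stop the reverse transcriptase, which gives a truncation site, or make it misread a base, which gives a mutation site.

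H1299 is an established line from a human lung carcinoma of the non-small cell type, and both samples of the series are SRSF1 libraries of it, numbered as replicates 1 and 2 of 1 group. Both carry the same labels apart from that number, with no treatment or genetic change named and no control library. The list has no column for either replicate, so nothing below has a replicate spread and no test between samples was possible. How many tags each library held is unknown. Shares carry exact Clopper-Pearson 95% intervals, which treat sites or loci as units of 1 list and cover counting error alone. Neither H1299 nor its chromosome 8 content could be checked against marker genes in a list of crosslink sites. No gene annotation of hg19 was used, so sites are given by position.

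At the edges of the first window, the nearest minus-strand site outside it was a truncation site with 4 tags at 144920960 to 144920980, and the first one inside had 5 tags at 144990388 to 144990408. On the other side, the last site inside was a mutation site with 2 mutated tags at 145014973 to 145014993, and the next outside was a truncation site with 5 tags at 145512850 to 145512870. Around the second window the neighbours were a truncation site with 7 tags at 69685129 to 69685149 and one with 6 tags at 71625557 to 71625577. Inside it, the outermost sites were a mutation site covered by 184 tags and a truncation site with 15 tags.

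The long arm carried most of the members. Of the 318 sites, 273 lay on the long arm and 45 on the short arm, below 45.6 Mb (14.2%, interval 10.5 to 18.5%). Sites of 1 strand whose midpoints were at most 1000 nt apart were joined into loci, which gave 257 loci, 216 on the long arm and 41 on the short arm (16%, 11.7 to 21%). The short arm carries 272 of the 683 protein-coding genes of the chromosome (39.8%) in GENCODE 29. That annotation is for GRCh38, and from it the number of genes on each side of the centromere was taken and no position. The short arm thus held 15.1 loci per 100 coding genes and the long arm 52.6, with 26.0 over the other autosomes together. Loci per coding gene were thus higher on the long arm, and the short arm was under the pooled value of the other autosomes. No such value was taken for single autosomes or their arms, so how far these stand out is unknown. The chromosome was chosen by its number of sites, so they are a description. Leaving out the loci of the bin from 140 Mb, with its genes still counted, the long arm held 40.1.

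Sites were spread unevenly over the 15 bins of 10 Mb. The median bin held 16 sites (quartiles 12 and 28), and so did the median of 285 bins on the other autosomes (16, quartiles 8 and 27), of which 11 were empty. The 4 bins below 40 Mb held 4, 13, 16 and 6 sites, each at or under that median. The bin that spans the centromere, from 40 Mb, held 18. On the long arm the counts were 26 and 30 in the bins from 50 and 60 Mb, then 12 and 8 in those from 70 and 80 Mb. They were 32 and 24 from 90 and 100 Mb, 15 from 110 Mb, 38 from 120 Mb and 12 from 130 Mb. The last bin, which starts at 140 Mb, held 64 sites in 51 loci, 20.1% of the members. Of the 285 bins elsewhere, 16 held as many or more. The last site of the chromosome ended at 146015216, and no count was scaled to the length of chromosome within a bin. The rule had taken 46 sites out of this bin and none out of those 285. With all chromosome 8 sites kept it held 110 (29.4% of 374), and 2 of the 285 held as many or more. On the other autosomes the fullest bin held a median of 27.8% of the sites (range 11.8 to 51.4%), and 14 of the 21 had a higher share than the members' 20.1%. Such a share also depends on how many bins a chromosome has. Over the mean bin of its own chromosome, the fullest bin was 3.02-fold higher on chromosome 8, with a median of 2.72-fold elsewhere, and 9 of the 21 were above chromosome 8. Both orders used the bin without its 46 left-out sites, while the other autosomes kept their densest places. With all chromosome 8 sites kept, the share of 29.4% was above the median of 27.8%.

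**Figure D1:**
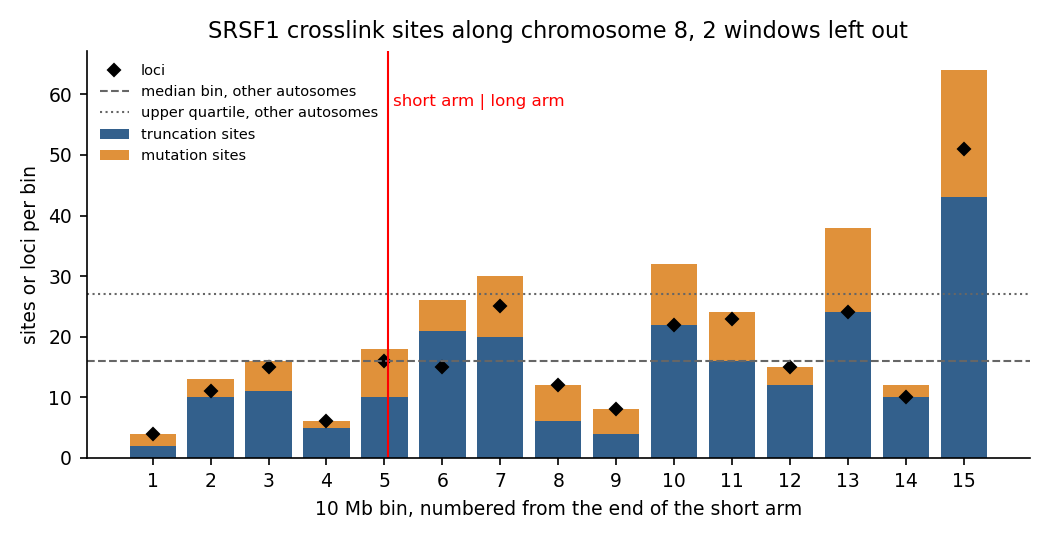
Number of sites per 10 Mb bin of chromosome 8, numbered from the end of the short arm, with truncation sites in blue, mutation sites in orange and loci as diamonds. Broken and dotted lines are the median (16) and upper quartile (27) of the bins of the other autosomes, and the last bin stands highest with 64 sites.

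Within the last bin the sites gathered between 144 and 146 Mb. Between 144 and 145 Mb lay 30 sites in 23 loci and between 145 and 146 Mb another 22 in 16 loci, against 9 between 141 and 142 Mb and 2 between 143 and 144 Mb. Of the 38 sites in the bin from 120 Mb, 19 lay between 128 and 129 Mb, in 7 loci, and 10 between 126 and 127 Mb. Long stretches held no site on either strand. The longest was 5.32 Mb on the short arm, from 33371018 to 38688635, and the next were more than 5 Mb from 119118825 to 124265653 and 4.41 Mb from 112106050 to 116511667. Another of 4.02 Mb, from 42935061 to 46951986, spans the boundary of the arms. Neighbouring loci on either strand were a median of 466 kb apart on the short arm (quartiles 98.9 and 1359 kb) and 71.1 kb on the long arm (13.9 and 479 kb), with 126 kb on the other autosomes (21.6 and 532 kb).

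The strands were unequal in a way that changed along the chromosome. Over all members, 139 sites were on the plus strand and 179 on the minus strand, a plus share of 43.7% (38.2 to 49.4%). The other autosomes had 51.7% (50.5 to 53.0%), and 3 of the 21 had a lower share than chromosome 8. On the short arm the plus strand led, with 31 of 45 sites (68.9%, 53.4 to 81.8%). On the long arm below 140 Mb the strands were close, with 100 plus and 109 minus sites. From 140 Mb, 56 of 64 sites were on the minus strand, although the dense minus-strand window in that bin had been left out. Counted by loci, 43 of 51 in this bin were on the minus strand (84.3%). Among the 21 bins of the other autosomes with 40 or more loci, the main strand held a median of 57.5% of the loci and at most 82.5%, so none of these was as one-sided. Among the 85 with 20 or more loci, 1 was. The bin was picked for mention after its values were seen, and no test was made. Other bins leaned too: from 90 Mb, 27 of 32 sites were on the minus strand, and from 120 Mb, 30 of 38 were on the plus strand. By loci these 2 bins were less one-sided, with 17 of 22 and 16 of 24. No pair of loci on opposite strands lay within 1000 nt of each other (0 pairs). The same count was not made on the other autosomes, so whether this sets chromosome 8 apart is unknown.

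**Figure D2:**
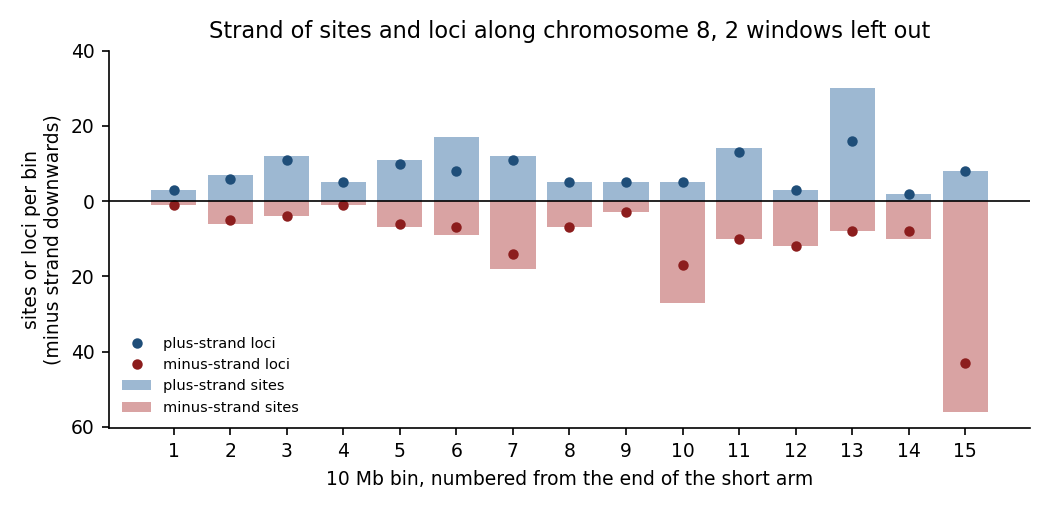
Sites (bars) and loci (points) per 10 Mb bin of chromosome 8, plus strand upwards and minus strand downwards. The last bin has 8 plus-strand and 56 minus-strand sites, while the bin from 120 Mb (number 13) has 30 and 8.

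The numbers in the site names give bounds on the tag clusters of each arm. A truncation site is named with the number of the tag cluster it lies in, and these numbers never decrease along a chromosome strand, so the numbers at sites on either side of a boundary give bounds on the clusters between them. The short arm had between 5450 and 5779 numbered clusters, of which 31 held such a site, or 0.536 to 0.569%. On the long arm at least 17525 were numbered outside the left-out windows, and 170 held one, at most 0.970% (interval 0.830 to 1.13% at that bound). For the part of the long arm below 140 Mb both bounds were known: 130 of 12482 to 13098 clusters, or 0.993 to 1.04%. From 140 Mb on, 40 of at least 4754 clusters held a truncation site, at most 0.841%. Per coding gene the short arm had at most 21.2 numbered clusters and the long arm at least 42.6. The long arm thus had more numbered clusters per coding gene. Its share of clusters with a truncation site is bounded from above alone, so the whole arms cannot be put in order by it. Its part below 140 Mb had a higher share than the short arm by both bounds. The tag depth of each arm is not in the list.

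Set beside the first 45.6 Mb of the other autosomes, which is not an arm there, the short arm of chromosome 8 was among the emptier stretches. Its 45 sites were more than on 2 of the 21 and fewer than on 19, around a median of 84 (lowest 19, highest 328). Its upper bound on the share of clusters with a truncation site, 0.569%, was above 3 of the 21 upper bounds and below 18, whose median was 0.808%. By the lower bound, 0.536%, it was above 6 and below 15. The long arm's upper bound of 0.970% was higher than 18 of the 21 upper bounds for what lies beyond 45.6 Mb on the other autosomes (median 0.839%, range 0.564 to 1.13%). An order of upper bounds is not an order of the shares themselves, since the distance of each bound from the true share is unknown.

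**Figure D3:**
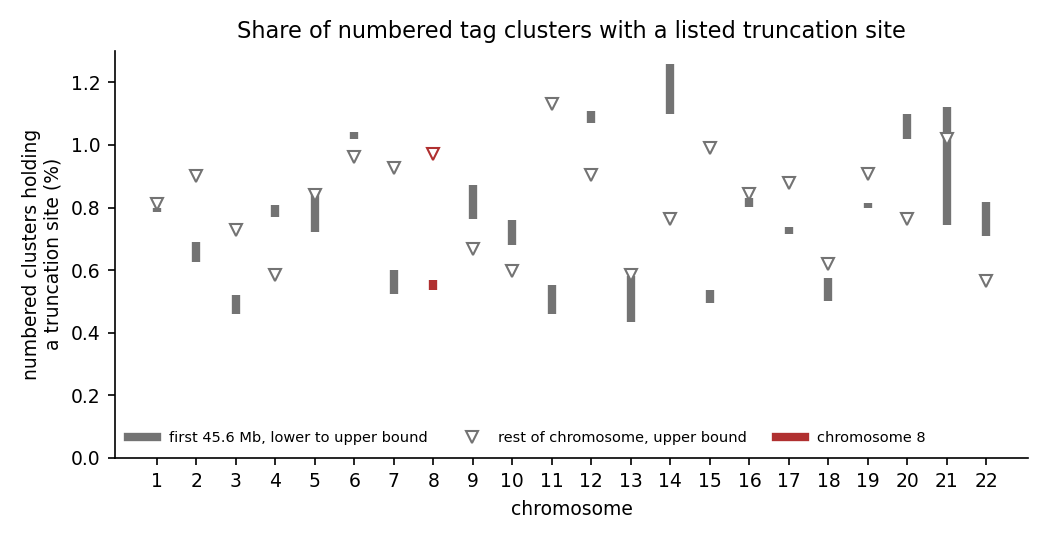
Share of numbered tag clusters with a listed truncation site, for the first 45.6 Mb of each autosome (bars from lower to upper bound) and for the rest (triangles, upper bound alone), in percent. Chromosome 8 is in red: its bar lies at 0.536 to 0.569% and its triangle at 0.970%.

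Members were truncation sites in 216 cases and mutation sites in 102. The truncation share was 67.9% (62.5 to 73.0%), with 70.0% on the other autosomes, a difference of -2.05 percentage points that lies inside the interval. Chromosome 8 had a lower share than 16 of the 21 others and a higher one than 5. The short arm had 71.1% (55.7 to 83.6%, 32 of 45) and the long arm 67.4% (61.5 to 72.9%, 184 of 273), and these intervals overlap widely. The bin from 140 Mb had 67.2% (43 of 64). A difference in the balance of the 2 kinds was not detectable at this number of sites.

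Truncation sites on chromosome 8 had the same median of tags as those elsewhere. The median was 6 truncated tags (quartiles 5 and 8, range 4 to 23), and the median of the other autosomes was also 6 (quartiles 5 and 9, highest 42). The number expected per position of the tag cluster had a median of 0.18, against 0.19 elsewhere. Observed over expected tags had a median of 35.1 (27.1 and 43.8), against 35.3 (26.3 and 44.4). Both arms had a median of 6 truncated tags, and their ratios were 36.5 on the short arm and 34.2 on the long arm. Of the 216 truncation sites, 33 had the smallest listed number, 4 tags (15.3%, 10.8 to 20.8%; 15.1% elsewhere). At the other end, 8 had 15 or more (3.70%, 1.61 to 7.17%), against 6.80% elsewhere, where dense loci had been left in. Sites with 10 or more tags were 18.1% of the members' truncation sites and 20.9% of those elsewhere. The first share was 20.8% with all chromosome 8 sites kept. The second was 17.9% without the 2 loci of most sites of each other autosome. No site under 4 tags is listed, which narrows what such medians can show.

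Of the 6 truncation sites with the most tags, 1 lay on the short arm. The highest had 23 tags on the minus strand at 109304653 to 109304673, against 0.59 expected per position. Next came 21 tags on the minus strand at 69218503 to 69218523 and 19 on the minus strand at 95541349 to 95541369. The last of these has a neighbour with 11 tags at 95541398 to 95541418, in the same cluster. A minus-strand site at 144899205 to 144899225 had 18 tags against 0.42 expected and lay between the left-out window and a dense locus described further on. Both sites with 17 tags, on the plus strand at 33370997 to 33371017 and on the minus strand at 67834757 to 67834777, were single. Of these 6 sites, 5 were the sole site of their locus, as were 150 of all 216 truncation sites (69.4%). The plus-strand site of 17 tags was the highest of the short arm and stood at the edge of the longest stretch without sites. The short arm's next were 13 tags at 1820197 to 1820217 on the plus strand and 12 at 18786326 to 18786346 on the minus strand.

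Mutation sites were shallow, as in the rest of the list. They were covered by a median of 4 tags (quartiles 3 and 7, range 2 to 65), against 5 elsewhere (3 and 8, highest 424). The median of mutated tags was 2, the smallest number listed, both here and elsewhere. The median mutated share was 53.6% here and 50% elsewhere, a value that the listed minimum of 2 mutated tags largely sets at such depth. Sites covered by 2 to 4 tags made up 58 of 102 (56.9%, 46.7 to 66.6%), against 48.7% elsewhere. Those covered by 20 or more made up 8 (7.84%, 3.45 to 14.9%), against 12%. The rule had taken dense places out of chromosome 8 alone, and both gaps changed with what was taken out. With all chromosome 8 sites kept the 2 shares were 51.8% and 13.2%. On the other autosomes without their 2 loci of most sites each, they were 51.2% and 8.14%. The gap at 2 to 4 tags became smaller in both settings and kept its direction. The gap at 20 or more was reversed in the first setting and nearly closed in the second. Among the 15 members with 10 or more covering tags the median mutated share was 16%. All covering tags were mutated at 29 sites (28.4%, 19.9 to 38.2%), with 26.7% elsewhere, and 22 of the 29 rested on 2 tags.

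**Figure D4:**
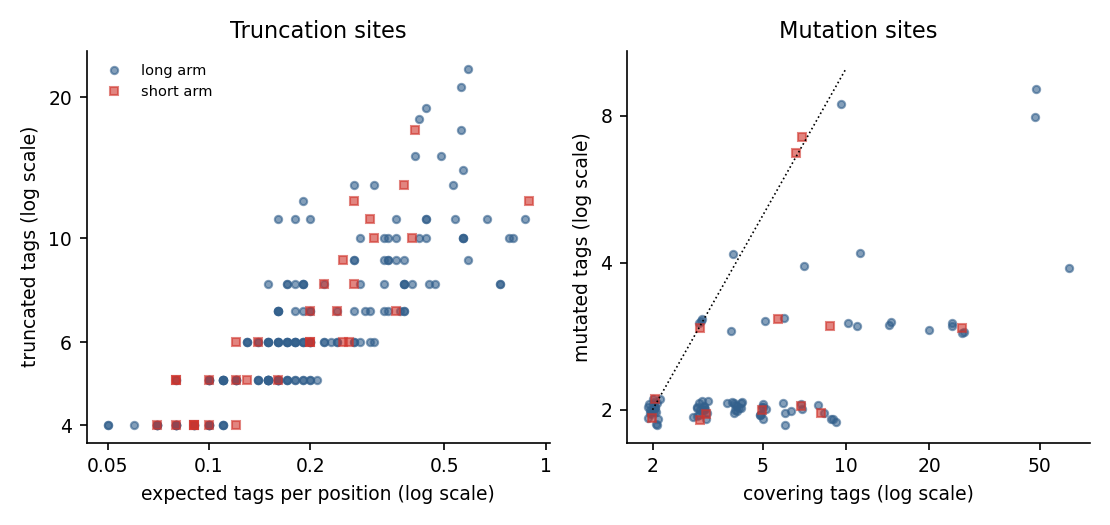
Left, truncated tags against the tags expected per position for the 216 truncation sites. Right, mutated against covering tags for the 102 mutation sites, with a little random spread added so that equal points can be seen and a dotted line where all tags are mutated; log axes, long arm in blue and short arm in red. The arms overlap in both panels, and the 2 short-arm sites on the dotted line at 7 tags are the deepest with all tags mutated.

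By mutated tags, the highest site lay on the plus strand at 126304453 to 126304473, with 9 of 48 tags mutated (18.8%). It had a truncation site of 7 tags 9 nt 5′ of it. The next, on the plus strand at 128824935 to 128824955, had 8 of 50 (16%), and its neighbour at 128824953 to 128824973 had the deepest coverage of any member, 65 tags with 4 mutated (6.15%). A minus-strand site at 144668466 to 144668486 had 8 of 10 tags mutated (80.0%). Both of the following were on the short arm, each with 7 of 7 tags mutated: 1716598 to 1716618 on the plus strand and 5325324 to 5325344 on the minus strand. They were the 2 members with 5 or more covering tags of which all were mutated, while the other autosomes held 14 such sites among 1844. Neither had another site within its locus. The kind of mutation is not given in the list. The sixth was on the plus strand at 48532477 to 48532497, with 4 of 11 tags mutated. After the pair with 7 tags, the short arm's next was on the minus strand at 12959836 to 12959856, with 3 of 9.

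Few mutation sites lay close to a truncation site. Within 50 nt on the same strand were 10 of 102 (9.80%, 4.80 to 17.3%), with 16.5% on the other autosomes, a value inside the interval. Outside the 2 windows, chromosome 8 had a lower share than 17 of the 21 other autosomes, whose dense loci had been left in. With all chromosome 8 sites kept, 18 of 114 lay this close (15.8%, 9.63 to 23.8%). Without their 2 loci of most sites each, the other autosomes had 13.2%. Without the loci of 5 or more sites the members' share was 6.59% (2.46 to 13.8%), and the other autosomes without theirs had 12.6%, also inside the interval. Of the 10, 7 lay 3′ of their nearest truncation site, at 9 to 35 nt, and 3 lay 5′, at 1, 2 and 3 nt. The 6 with 14 or more covering tags were all among the 7 on the 3′ side, and the 3 on the 5′ side were covered by 5, 6 and 7 tags. The 10 were covered by a median of 19.5 tags and the other 92 by 4, with 22 and 4 on the other autosomes. There, of 305 mutation sites within 50 nt, 204 lay 3′, 84 lay 5′ and 17 had the same midpoint. The members' split by side was thus close to that elsewhere. Among the members, the sites covered by 50 and 65 tags had the same nearest truncation site. A listed truncation site has 4 or more tags that start there and run on 3′, and these count towards the coverage on that side. How much this bears on the coverage and side of the 10 was not tested. No truncation and mutation site of the members shared an identical interval (0 of 102). On the other autosomes 17 of 1844 mutation sites had the same midpoint as a truncation site. With all chromosome 8 sites kept, 1 of 114 did, so the 0 is no trait of the members.

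Most loci held a single site. Of the 257 loci, 226 held 1 site (87.9%, 83.3 to 91.7%), with 84.9% on the other autosomes. Another 26 held 2 to 4, and 5 held 5 or more (1.95%, 0.635 to 4.48%), with 1.22% elsewhere. Loci of truncation sites alone numbered 165 and of mutation sites alone 78, and 14 held both kinds (5.45%, with 8.03% elsewhere). The rule took the densest places out of chromosome 8 and left those of the other autosomes in. With nothing taken out on either side, 8 of 266 chromosome 8 loci held 5 or more (3.01%, 1.31 to 5.84%), with 1.22% elsewhere, just under that interval. The members' 1.95% was higher than the share of 18 of the other autosomes and lower than that of 3. The chromosome was chosen by its number of sites, to which dense loci add, so both are a description. At the gap of 1000 nt, 0.571% of the other autosomes' loci held 5 or more once the 2 loci of most sites were taken out of each. That value was just under the interval of the members. The loci taken out were picked by their number of sites, the very quantity compared, so the sides are not alike. This placing also depended on the gap. With gaps up to 500 nt, 3 of 262 loci held 5 or more (1.15%, 0.237 to 3.31%), and up to 10000 nt 9 of 209 did (4.31%, 1.99 to 8.02%). The other autosomes less their 2 fullest loci then had 0.264% and 2.29%, both inside the interval. All 5 such loci of the members at the gap of 1000 nt lay on the long arm and held 32 sites. On the short arm 37 of 41 loci held 1 site and the other 4 held 2 each.

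The fullest locus lay on the plus strand from 128909437 to 128911264 and held 9 sites in 1828 nt. Its 7 truncation sites had 6, 13, 10, 9, 9, 10 and 5 tags in 5′ to 3′ order. The middle 5 of them, from 9 to 13 tags, were 112 to 150 nt apart and each lay in a cluster of its own, as did the outer sites. The 2 mutation sites had 3 of 25 and 3 of 23 tags mutated, the first of them 14 nt 3′ of a truncation site. Upstream on the same strand, 83.9 kb away, from 128824500 to 128825567, lay a locus of another make-up. It held 2 truncation sites of 10 tags each and 3 mutation sites, 2 of which are the deep sites with 50 and 65 covering tags, 17 and 35 nt 3′ of the second truncation site. Both loci are among the 7 that gave 19 plus-strand and 0 minus-strand sites between 128 and 129 Mb.

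The second locus by number of sites was on the minus strand, from 94745941 to 94746954. It was rich in mutation sites, with 5 against 2 truncation sites of 7 and 6 tags. Its mutation sites were covered by 4 to 26 tags and had 2 or 3 mutated. Joining sites up to 10000 nt apart extended it to 10 sites, of which 7 were mutation sites, while members as a whole had more truncation sites.

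A plus-strand stretch held mostly truncation sites. Its locus from 58122259 to 58122954 held 5 of them with 10, 14, 6, 7 and 6 tags and 1 mutation site. Another locus, 3.64 kb upstream at 58118181 to 58118616, held 4 truncation sites of 6, 8, 8 and 9 tags. Joined up to 10000 nt, the stretch from 58115613 to 58122954 held 11 sites, 10 of them truncation sites.

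In the last bin, the minus-strand locus from 144890883 to 144891926 held 5 truncation sites. In 5′ to 3′ order they had 6, 6, 9, 11 and 10 tags, and the last 3 lay 34 and 29 nt apart in 1 tag cluster, the one cluster among the members with 3 truncation sites. The single strong site of 18 tags was upstream of this locus. The largest group of the bin when sites up to 10000 nt apart were joined lay at 144656402 to 144679174, with 13 minus-strand sites in 10 loci over 22773 nt. Its 8 truncation sites had at most 11 tags and its 5 mutation sites at most 10 covering tags. Its sites were thus many and thinly spread, while those of the fullest locus on the plus strand were packed in 1828 nt. Another minus-strand group, from 145661874 to 145669310, held 8 sites in 5 loci, 3 truncation and 5 mutation sites.

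**Figure D5:**
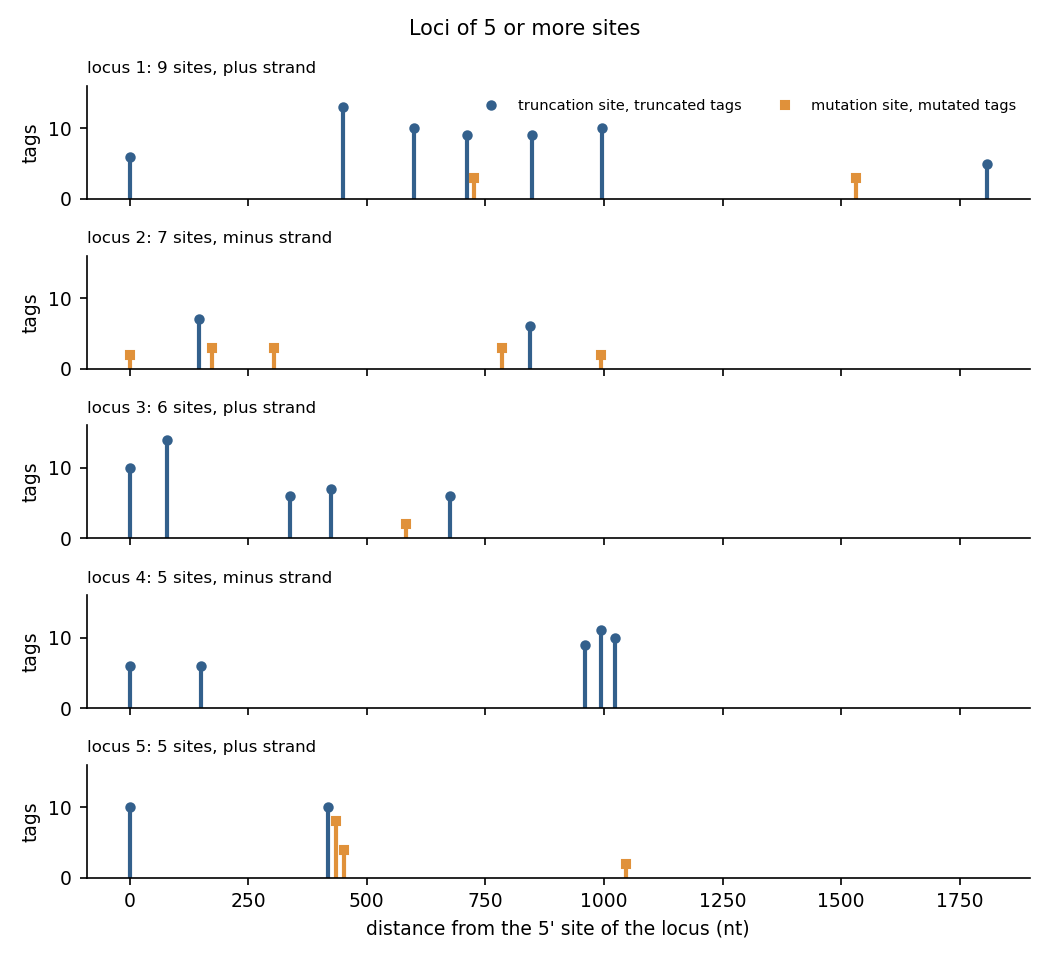
Sites of the 5 loci with 5 or more sites, by distance in nt from the 5′ site of each locus, with truncated tags of truncation sites in blue and mutated tags of mutation sites in orange. The first locus has 7 truncation sites over 1828 nt, the second mostly mutation sites, and the fourth 3 truncation sites, 34 and 29 nt apart, at its 3′ end.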

How the data were processed

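SRSF1 HITS-CLIP was done on 2 samples of H1299 cells, 1 group. The build was hg19, and cutadapt (no version given) and BWA 0.7 were among the tools, per the submitters' processing notes. The sources used here do not give aligner settings or the point where replicates were merged. A single list was deposited by the authors, with whole-number tag counts (truncated or mutated tags) and site names that follow the CTK toolkit, whose other values (expected tags, covering tags, P) were read from the deposited names. From these, midpoints, loci, bins and cluster bounds were computed with Python 3.11.15, pandas 2.3.3 and SciPy 1.17.1, and the code was tested on simulated data. GENCODE 29 gave gene numbers per arm. The annotation at hand is for GRCh38, so the planned assignment of sites to genes and gene lists was not run. Members, bins and settings were chosen with earlier results of these data known. Named by rule were the loci with the most sites (6), the sites with the most tags of each kind (6, and 3 per arm) and the 2 fullest bins. No sequence is printed. No test was run, because the list is 1 combined sample; depth per library is unknown.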

Additional observations from a re-analysis of the deposited data

How the results depend on the processing

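With 1 combined list no replicate could be left out. No paired analysis was possible because the replicates have no columns. Over 21 results, 52 alternatives were run, and 46 stayed within 1.5 times a count or within the interval of a share or median. Some of the 46 could not move, because both left-out windows lie on the long arm. With all chromosome 8 sites kept, the short arm's 15.1 loci per 100 coding genes and 0.569% of clusters were bound to stay. The fullest bin, 4 times the median bin of the other autosomes, was 2.06 times it with bins of 20 Mb and 5.86 times it with bins of 5 Mb. The truncation share, 67.9%, was 75.9% among sites above the median tag count of their kind, where its difference from the other autosomes was -1.97 percentage points. The median mutated share, 53.6%, was 16% at 10 or more covering tags, because shallow sites cannot have a low share. Loci of 1 site, 87.9%, were 81.3% with gaps up to 10000 nt. Mutation sites near a truncation site, 9.80% within 50 nt, were 3.92% within 10 nt. The short-arm share of sites ran from 12 to 16% under its 5 alternatives. Some kinds of alternative were chosen after seeing the data. They take loci out of the other autosomes, leave out the dense loci for proximity, or leave out the bin from 140 Mb. Others keep all sites of the bin from 140 Mb, or keep all chromosome 8 sites for the cluster share, the dense loci, proximity or shares by depth. Low depth limits above all the 56.9% of mutation sites with 2 to 4 covering tags.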
